A study of Salmo salar with 48 samples.

Results

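An amplicon on chromosome 15 of the Atlantic salmon (Salmo salar), called ssa15 here, was examined in liver DNA. Its CpGs were taken by position, without regard to their levels, and it holds the CpGs from 46698401 to 46698820 of the chromosome 15 reference sequence named in the files. These are 13 of the 107 CpGs, in 7 amplicons, that had calls in every one of the 48 fish. The amplicon was shallow, and 21 of the 48 fish were used, namely those with a median of at least 30 calls per CpG. A call is 1 read that shows a cytosine as methylated or unmethylated, and the level of a site is 100 times its methylated calls over all its calls. The gene at these positions was not analysed here.

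The fish were juveniles of a commercial broodstock (St. John River strain), all started at 12 °C, and their livers were taken at 2 times. Warm and hypoxic fish (WH) were held at 70% air saturation and warmed by 1 °C per week to 20 °C. Warm and normoxic fish (WN) had the same ramp at 100% air saturation, and control fish (CT) stayed at 12 °C and 100% air saturation. Livers came from 8 fish per treatment and time, after 4 weeks and after 3 days at 20 °C or from controls of the same times, with 4 fish from each of 2 tanks per group. The 21 used fish were 3 WH, 7 WN and 2 CT fish of 4 weeks and 5 WH, 3 WN and 1 CT fish of 3 days, and 10 were male and 11 female. Each liver sample holds all cell types of the organ, which DNA methylation at one amplicon cannot separate.

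In vertebrate DNA a methyl group is added to cytosines mainly where a guanine follows, that is at CpG sites. Most CpGs that lie far apart are methylated, while CpG-rich stretches around active promoters are usually kept free of it. Bisulfite turns unmethylated cytosine into uracil, which is read as T after amplification, so that a cytosine still read as C counts as methylated. A cytosine that escaped conversion is counted in the same way. The share of such cytosines was not measured here, and its part in the low levels below was not tested.

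The 13 CpGs spread over 420 bases, or 3.10 CpGs per 100 bases. CpGs 1 and 2 (46698401 and 46698404) lie 3 bases apart, and a stretch of 134 bases separates them from CpGs 3 and 4 (46698538 and 46698546). After a further 73 bases come CpG 5 (46698619), CpG 6 (46698630) and CpG 7 (46698648), which fall within 30 bases. CpGs 8 to 13 (46698689, 46698702, 46698741, 46698763, 46698781 and 46698820) follow at distances of 41, 13, 39, 22, 18 and 39 bases. The base after the CpG is given by the files. CpGs 1, 2, 4 and 11 read cgT, CpGs 3, 5, 8 and 13 cgC, CpGs 6, 9, 10 and 12 cgA and CpG 7 cgG, with the following base in capitals.

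Coverage was the main limit of this amplicon. It received 0.107% of the calls of the 7 amplicons, whose totals ranged from 1939550 to 4890736 calls per fish. The median fish had 18.5 calls per CpG, with a range from 1 to 5923. At 4 weeks the median coverage was 20 calls in WH, 227 in WN and 18.5 in CT fish, and at 3 days it was 55 in WH, 11.5 in WN and 7 in CT fish (8 fish each). The minimum of 30 calls therefore kept 8 of 16 WH, 10 of 16 WN and 3 of 16 CT fish. WN fish of 4 weeks were kept most often, 7 of 8, and CT fish of 3 days least often, 1 of 8. Nearest to the minimum were WH fish 98 of 4 weeks, used with a median of 30 calls and a level over all its calls of 1.82%, and WH fish 120 of 4 weeks, left out with a median of 29 calls and 1.34%. Among the used fish 5 had a median over 500 calls. These were WN fish 101, 113 and 116 of 4 weeks and WH fish 75 and 95 of 3 days, all 5 of them male, and they held 89.2% of the 170691 calls. Fish 75 alone held 45.02%. For this reason each fish counts equally in the means below.

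**Figure D1:**
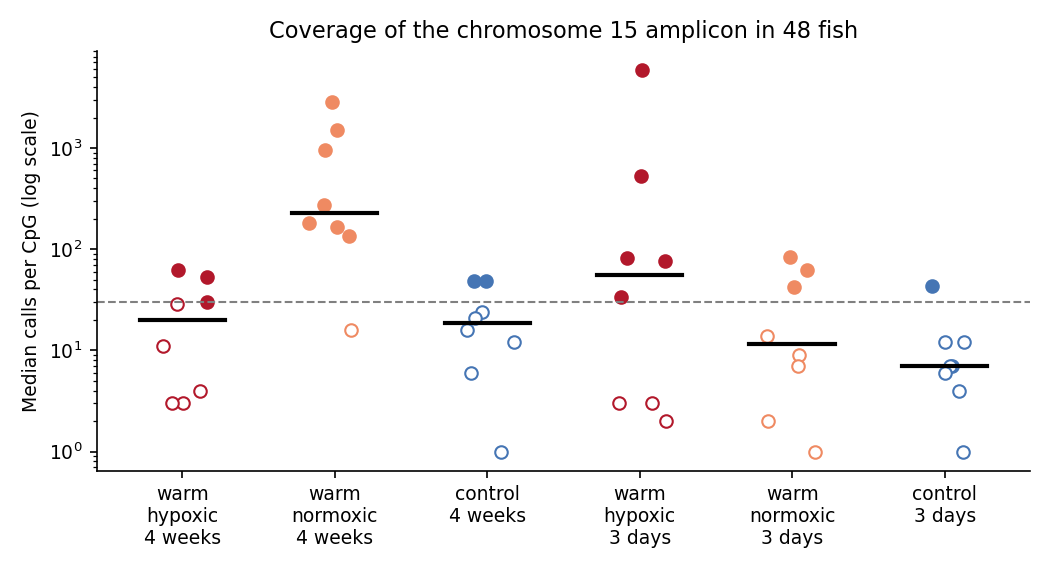
Median calls per CpG over the 13 CpGs (log scale) in each of the 48 fish by treatment and time, with filled points for the 21 used fish, open points for the 27 others, a dashed line at 30 calls and a bar at each group's median. The fish span 1 to 5923 calls, and 3 of 16 control fish lie above the line.

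Within a fish, coverage hardly changed along the amplicon. The lowest CpG of a used fish had at least 92.1% of the calls of its highest. Summed over the used fish, calls were fewest at CpGs 13, 7, 5 and 6, with 98.2%, 98.4%, 99.0% and 99.0% of the highest sum. CpGs 5, 6, 7 and 13 were also the 4 with the highest mean levels. The correlation of summed calls with mean level was -0.71 (Pearson) over the 13 CpGs, which share all libraries. Whether missing calls at these CpGs affected their levels was not tested.

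The amplicon was mostly unmethylated. The mean level over the 13 CpGs was 1.93% ± 0.746 (SD, n = 21 fish), with a lowest fish of 0.641%, a median of 1.84% and a highest fish of 3.98%. Methylated calls numbered 2923, which is 1.71% of all calls of the used fish (95% Wilson interval 1.65% to 1.78%). This interval covers counting error only, since PCR reads without molecular identifiers are not independent molecules.

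What methylation there was lay largely in 1 short stretch. CpGs 5, 6 and 7, within 30 bases, held 71.7% of the methylated calls and 22.9% of all calls when all used fish were pooled. With fish weighted equally they held 62.3% ± 11.8 of a fish's methylated calls (SD, n = 21, range 37.5% to 84.4%), and in the 16 fish with a median under 500 calls per CpG they held 209 of 360 methylated calls, or 58.1%. Their mean was 5.16% ± 1.903 (SD, n = 21), with a range over fish from 1.39% to 10.2%, whereas the other 10 CpGs averaged 0.960% ± 0.527 (SD, n = 21), with a range from 0.277% to 2.11%. All 21 fish had a higher mean at these 3 CpGs than at the other 10. In some fish this rested on few methylated calls. The 3 CpGs held 2 of 4 in CT fish 108, 3 of 8 in WH fish 93 and 5 of 10 in WN fish 91. The highest CpG of a fish was among the 3, ties included, in 18 of the 21 fish. In the remaining 3 it was CpG 12 (WH fish 93 of 3 days) or CpG 13 (WH fish 100 of 4 weeks and WN fish 91 of 3 days). The 3 CpGs were grouped after their values were seen, and no test was made of the group.

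**Figure D2:**
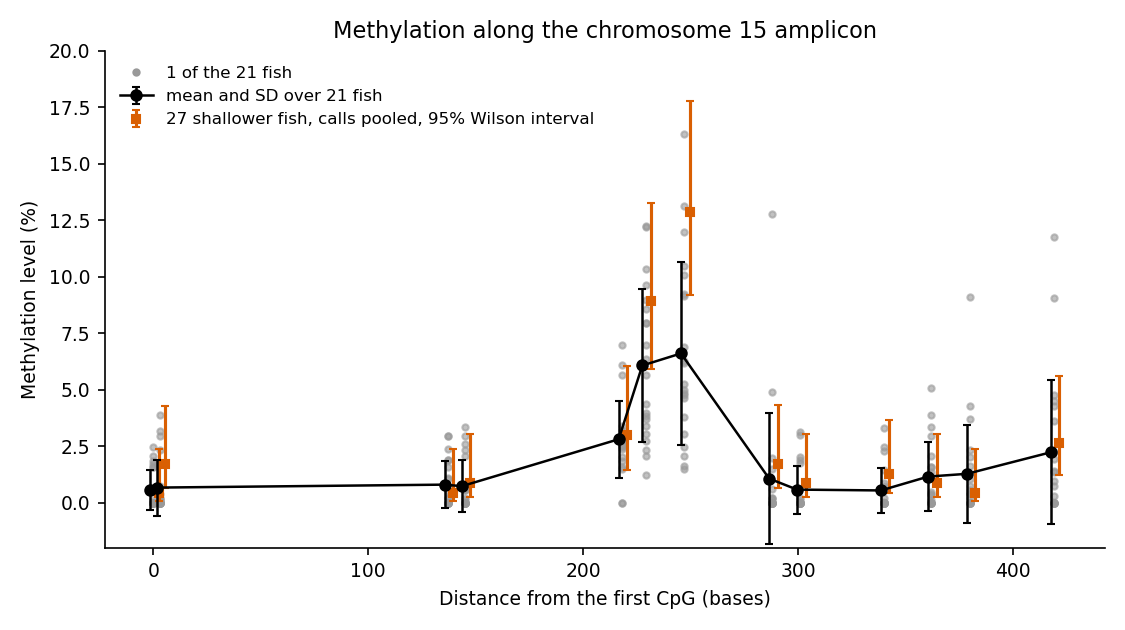
Methylation level (%) against the distance from the first CpG (bases), with grey points for each of the 21 fish, black points and bars for their mean and SD, and orange squares with 95% Wilson intervals for the pooled calls of the 27 shallower fish. The means of CpGs 6 and 7, at 229 and 247 bases, are 6.07% and 6.60%, and outside CpGs 5 to 7 no mean exceeds 2.23%.

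Each CpG was tested against the mean of the other CpGs of its amplicon in the same fish (two-sided sign-flip permutation test over fish, 100000 resamples, with Benjamini-Hochberg adjustment across all 107 CpGs in the 7 amplicons, threshold 0.05). In ssa15, 3 of 13 CpGs were higher, where 21.5% of all 107 CpGs were, and 6 of 13 were lower, where 35.5% of all were. These shares over all 107 CpGs include ssa15 itself and mix unlike amplicons. Higher and lower CpGs were 7 and 10 of 18 in the chromosome 4 amplicon at 35 Mb. They were 5 and 3 of 8 on chromosome 9 and 3 and 8 of 14 on chromosome 14. On chromosome 3 they were 2 and 4 of 16, and on chromosome 16 they were 3 and 6 of 23. The chromosome 4 amplicon at 45 Mb had 0 and 1 of 15. Because the mean of the others in ssa15 holds the 3 methylated CpGs, a lower CpG there is one that lies below an average raised by them.

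CpG 7 (46698648) had the highest mean level, 6.60% ± 4.07 (SD, n = 21). Its lowest fish had 1.498%, the median 5.26% and the highest 16.3%. It exceeded the mean of the other CpGs by 5.06 points (SD 3.83, higher in 20 of 21 fish, permutation, adjusted p = 5.94e-05). The fish that went the other way was WN fish 115 of 4 weeks.

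CpG 6 (46698630) followed with 6.07% ± 3.38 (SD, n = 21), from 1.22% in the lowest fish through a median of 5.66% to 12.2% in the highest. Its excess over the others was 4.49 points (SD 3.40, higher in 20 of 21 fish, permutation, adjusted p = 3.45e-05). CpGs 7 and 6 were the 2 that carried a methylated call in all 21 fish. Their mean difference was 0.533 points (SD 5.11), with CpG 7 above CpG 6 in 10 fish, below it in 9 and equal to it in 2. It was not tested.

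CpG 5 (46698619), the first of the stretch, had a lower mean than CpGs 6 and 7, at 2.81% ± 1.70 (SD, n = 21), and lay below CpG 6 in 15 fish, above it in 3 and level with it in 3. CpG 6 exceeded it by 3.26 points on average (SD 4.07). Over CpG 13, outside the stretch, the mean excess of CpG 5 was 0.578 points (SD 2.82). CpG 5 lay above CpG 13 in 11 fish, below it in 8 and level with it in 2. These differences between single CpGs were not tested. Methylated calls at CpG 5 were seen in 19 fish. Its excess over the other CpGs was 0.950 points (SD 1.74, higher in 16 of 21 fish, permutation, adjusted p = 0.0328). It no longer passed the threshold when any of 5 fish was left out, namely CT fish 84, WH fish 100 and WN fish 91, 102 and 116 (adjusted p between 0.0508 and 0.063, permutation), or with a minimum of 10 or 100 calls per fish (adjusted p = 0.123 and 0.0643, permutation).

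The 6 lower CpGs were CpGs 1 to 4 on one side of the stretch and CpGs 9 and 10 on the other. The 4 with the largest difference are given in full. CpG 10 (46698741) had the lowest mean of all, 0.540% ± 0.987 (SD, n = 21, highest fish 3.30%), and differed from the others by -1.505 points (lower in 18 of 21 fish, permutation, adjusted p = 8.23e-05). CpG 1 (46698401) stood at 0.566% ± 0.874 (SD, n = 21), with a difference of -1.48 points (lower in 17 of 21 fish, permutation, adjusted p = 0.000473). CpG 9 (46698702) had 0.577% ± 1.06 (SD, n = 21) and a difference of -1.46 points (lower in 18 of 21 fish, permutation, adjusted p = 5.94e-05). CpG 2 (46698404) had 0.666% ± 1.24 (SD, n = 21) and a difference of -1.37 points (lower in 17 of 21 fish, permutation, adjusted p = 0.00245). CpGs 3 and 4, at means of 0.797% and 0.729%, passed as well. With fish of at least 10 calls CpG 10 missed the threshold (permutation, adjusted p = 0.0524), and with the 9 fish of at least 100 calls CpG 9 did (exact permutation, adjusted p = 0.103). Mean differences between neighbours in rank among these low CpGs were smaller than the SD of the difference over fish, and they were not tested. Zero methylated calls occurred in 2 of 63 combinations of fish and CpG within the stretch, against 108 of 210 outside it. Taken as 3 over the number of calls, the level that a count of 0 allows is up to 10% at 30 calls and up to 0.0507% at 5923 calls. For 0 of 30 calls the 95% Wilson interval reaches 11.4%.

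CpGs 8, 11, 12 and 13 did not pass the threshold. CpG 8 (46698689) averaged 1.06% ± 2.92 (SD, n = 21) with a median of 0%. CT fish 111 of 4 weeks had 12.8% there, and the next fish, WN fish 102 of 4 weeks, had 4.92%. Its difference from the others was -0.937 points (permutation, adjusted p = 0.153), and without CT fish 111 it was -1.46 points (permutation, adjusted p = 0.000134). CpG 12 (46698781) averaged 1.28% ± 2.18 (SD, n = 21), with 9.09% in WH fish 93 of 3 days, which is 3 of 33 calls. Its difference was -0.708 points (permutation, adjusted p = 0.283), and -1.14 points without WH fish 93 (permutation, adjusted p = 0.00933). CpG 11 (46698763) averaged 1.15% ± 1.51 (SD, n = 21) and differed by -0.840 points (permutation, adjusted p = 0.0602). Leaving out any of CT fish 108, WH fish 73, WH fish 98 and WN fish 101 took it past the threshold (adjusted p from 0.0176 to 0.0332, permutation). With other minimums per fish they also differed, CpG 8 past the threshold at 50 calls (adjusted p = 0.0027, permutation) and CpGs 11 and 12 at 10 calls (adjusted p = 0.000818 and 0.013, permutation). CpG 13 (46698820), the last, averaged 2.23% ± 3.19 (SD, n = 21), with a median of 0.949% and a highest fish of 11.8%, and its difference was 0.324 points (permutation, adjusted p = 0.758), which turned to -0.177 without WH fish 100 of 4 weeks.

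**Figure D3:**
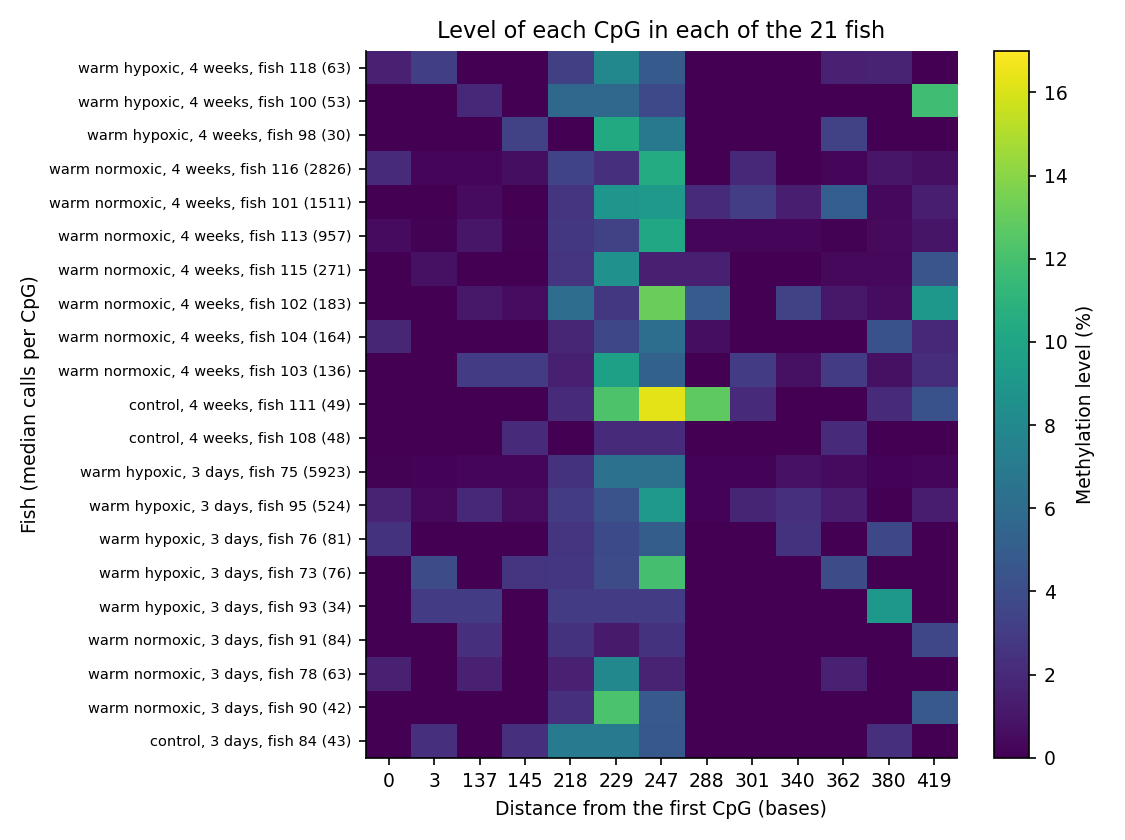
Methylation level (%, colour) of each CpG, by distance from the first CpG in bases, in each of the 21 fish, which are grouped by treatment and time and labelled with their median calls per CpG. The columns at 229 and 247 bases have the highest mean levels, with methylated calls in all 21 fish. Some fish are low there, such as control fish 108 with 2.08% in both columns. Elsewhere high levels occur in single fish or few, such as control fish 111 at 288 bases (12.8%) and warm hypoxic fish 100 and warm normoxic fish 102 at 419 bases (11.8% and 9.04%).

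Levels by the following base were not tested, and only 1 CpG was followed by G. The ranges for A, C and T overlapped. The 4 CpGs followed by A ranged in mean from 0.540% to 6.07%, the 4 followed by C from 0.797% to 2.81% and the 4 followed by T from 0.566% to 1.15%, while the 1 followed by G had 6.60%.

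The 5 fish with over 500 calls allow a view with little counting error. At CpG 7 they had 10.5% (WN fish 116), 10.1% (WN fish 113), 9.14% (WN fish 101), 9.21% (WH fish 95) and 6.25% (WH fish 75). At CpG 5 they lay close together, between 2.46% and 3.41%. At CpG 6 they were apart, with 8.96% in WN fish 101 (95% Wilson interval 7.61% to 10.5%) and 2.34% in WN fish 116 (1.85% to 2.97%). In each of the 5 fish CpGs 5, 6 and 7 were the 3 highest but for WN fish 101, where CpG 11 had 5.10% and CpG 9 had 3.11%, above the 2.61% of CpG 5.

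Outside the stretch, levels of single CpGs also differed among these 5 fish. CpG 11 had 77 methylated of 1511 calls in WN fish 101, 5.10% (95% Wilson interval 4.10% to 6.32%), but 1 of 959 in WN fish 113, 0.104% (0.0184% to 0.588%), and 28 of 5923 in WH fish 75, 0.473% (0.327% to 0.682%). CpG 1 had 2.08% in WN fish 116 (1.61% to 2.67%) and 0 of 1516 calls in WN fish 101 (0% to 0.253%). CpG 10 had 2.29% in WH fish 95 (1.31% to 3.95%) and 0.0353% in WN fish 116 (0.00622% to 0.199%). At 11 of the 13 CpGs, all but CpGs 2 and 5, at least 1 pair of these fish had Wilson intervals that did not overlap. CpGs 6 and 7 of the stretch are among these 11. The intervals cover counting error only. How many DNA molecules entered the amplification was not measured, so differences between fish and unequal copying of single molecules cannot be told apart at these CpGs.

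The 27 fish under the minimum, with 1 to 29 calls per CpG, were not used for the profile above and show the same measure in other animals. Their calls pooled gave 84 methylated of 3049, a level of 2.76% (95% Wilson interval 2.23% to 3.40%). CpGs 5, 6 and 7 had 58 of 702 methylated calls, 8.26% (6.45% to 10.5%), and the other 10 CpGs 26 of 2347, 1.11% (0.757% to 1.62%). In these pooled calls the 3 CpGs held 69.0% of the methylated calls. WN fish 89 of 3 days alone gave 13 of the 58, and the intervals do not cover the spread between fish. The pooled level was 12.9% at CpG 7 (9.17% to 17.8%), with methylated calls in 13 fish, 8.94% at CpG 6 (5.92% to 13.3%), with methylated calls in 10 fish, and 2.99% at CpG 5 (1.46% to 6.04%), with methylated calls in 5 fish. The CpGs were tested in the same way over these 27 fish, but with every CpG of at least 1 call in place of 10, a choice made once the data had been seen. Fish with 1 to 4 calls thus counted as much as the others. A methylated call was present in 20 of the 27 fish, and in the rest every difference was 0. The test put CpG 7 (adjusted p = 0.011, permutation) and CpG 6 (adjusted p = 0.0176, permutation) above the other CpGs, but not CpG 5 (adjusted p = 0.91, permutation). These 2 of 13 higher CpGs stand against 21.5% of all 107 CpGs in the same fish, and 6 of 13 were lower, against 38.3% of all. CpGs 1, 3, 9 and 10 were lower in both sets of fish, and CpGs 8 and 12 were the other 2 lower in the 27 fish (adjusted p = 0.0327 and 5.78e-05, permutation). CpG 12 had 1 methylated of 235 calls, so its difference largely reflected methylated calls at the other CpGs. The minimum of 10 calls left 10 of the 27 fish, also an alternative made after seeing the data. In these CpG 7 was higher by 11.6 points (adjusted p = 0.019, exact permutation), the 1 of 13 past the threshold where 17.8% of all 107 CpGs were higher, and CpG 6 was higher by 7.14 points without passing (adjusted p = 0.123, exact permutation). In these 10 fish CpG 7 ranged from 0% in CT fish 86 and WH fish 120 to 50% in WN fish 89 (7 of 14 calls). No fish was left out in turn. CpGs 1, 3, 4, 11 and 12 were lower there, 5 of 13, where 30.8% of all were, and of these CpGs 1, 3 and 4 were also lower in the 21 fish.

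The treatments are described without a test, because the minimum left 1 to 7 fish per group and coverage itself differed between groups. At 4 weeks the level over the 13 CpGs was 1.84%, 2.21% and 1.84% in WH fish 98, 100 and 118, 1.55% to 3.27% with a median of 1.80% in the 7 WN fish, and 0.641% and 3.98% in CT fish 108 and 111. The 2 control fish enclosed all WH and WN fish of that time. At 3 days it was 2.23%, 1.37%, 1.54%, 1.85% and 2.16% in WH fish 73, 75, 76, 93 and 95, 1.22%, 1.85% and 0.937% in WN fish 78, 90 and 91, and 1.97% in CT fish 84. Here the ranges of WH and WN fish overlapped, and the 1 CT fish lay within the range of the WH fish and above that of the WN fish.

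The means at 4 weeks were 1.96% ± 0.214 in WH (SD, n = 3), 2.12% ± 0.684 in WN (SD, n = 7) and 2.31% ± 2.36 in CT fish (SD, n = 2). The control mean rested on 2 fish that were far apart, and it was 3.98% without CT fish 108 and 0.641% without CT fish 111. At 3 days the means were 1.83% ± 0.376 in WH (SD, n = 5) and 1.34% ± 0.469 in WN fish (SD, n = 3). With fish of at least 10 calls they were 1.83% in WH and 2.79% in WN fish. This minimum added no WH fish of 3 days and only WN fish 89, with a median of 14 calls per CpG and 13 of 181 calls methylated. The order of the 2 means thus depended on this fish. Over both times the means were 1.88% ± 0.314 in WH (SD, n = 8), 1.89% ± 0.7099 in WN (SD, n = 10) and 2.20% ± 1.68 in CT fish (SD, n = 3). The 3 control fish included the lowest and the highest of all used fish, and these differences were not tested.

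In all treatments the mean of CpGs 5, 6 and 7 lay above that of the other 10 CpGs, but only 3 control fish were used. In CT fish 108 CpGs 6 and 7 each had 1 methylated of 48 calls, as had CpGs 4 and 11 outside the stretch. CpG 5 had none there. In CT fish 111 CpG 8, outside the stretch, had 12.8%, above the 12.2% of CpG 6. The mean of CpGs 5, 6 and 7 was 4.96% ± 1.05 in WH fish (SD, n = 8, range 3.03% to 6.20%), 5.08% ± 1.62 in WN fish (SD, n = 10, range 2.06% to 7.31%) and 5.93% ± 4.41 in CT fish (SD, n = 3, range 1.39% to 10.2%). The other 10 CpGs stood at 0.957% ± 0.393, 0.927% ± 0.556 and 1.07% ± 0.908 in the WH, WN and CT fish. CT fish 111 had the highest mean at the stretch and at the other CpGs, and CT fish 108 the lowest at the stretch, both with fewer than 50 calls per CpG. In CT fish 111 the level over all calls was 3.95% (95% Wilson interval 2.69% to 5.77%, 25 of 633 calls), and in CT fish 108 it was 0.643% (0.250% to 1.64%, 4 of 622 calls).

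**Figure D4:**
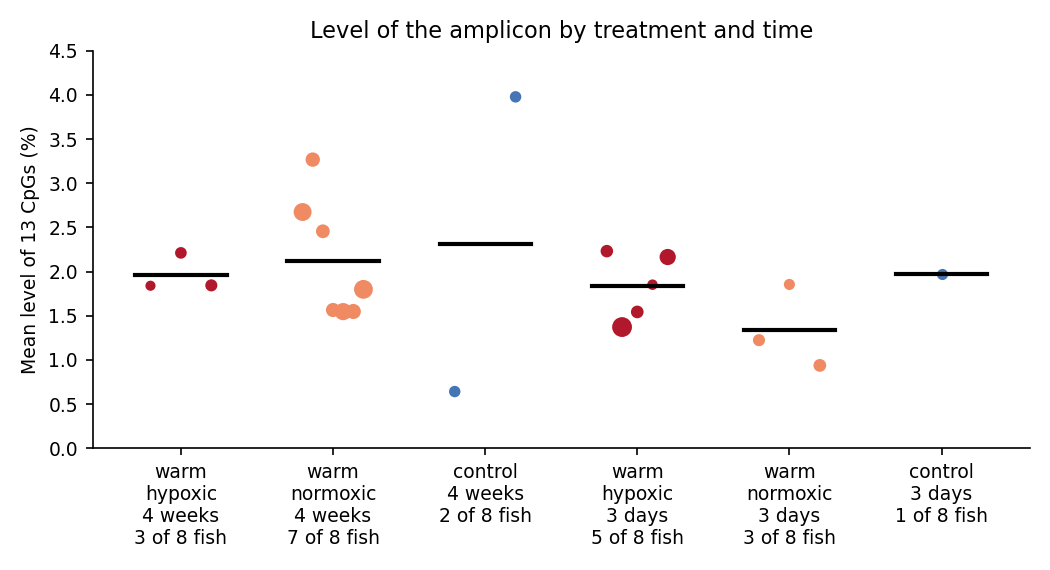
Mean level of the 13 CpGs (%) in each of the 21 used fish by treatment and time, with larger points for more calls per CpG and a bar at each group's mean. The fish lie between 0.641% and 3.98%, and both of these are control fish of 4 weeks.

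Time, sex and tank were unevenly filled. Fish of 4 weeks had 2.11% ± 0.885 (SD, n = 12) and fish of 3 days 1.68% ± 0.441 (SD, n = 9), and 7 of the 12 fish of 4 weeks were WN fish. Males had 1.74% ± 0.554 (SD, n = 10) and females 2.10% ± 0.876 (SD, n = 11). Of the WN fish, those of tank T2 had 2.24% ± 0.834 (SD, n = 5) and those of tank T5 1.54% ± 0.364 (SD, n = 5). Of the WH fish, those of tank T1 had 1.84% ± 0.387 (SD, n = 5) and those of tank T6 1.95% ± 0.183 (SD, n = 3). Control tank T3 had 1.30% ± 0.938 (SD, n = 2) and T4 had 1 fish with 3.98%. Each treatment had 2 tanks and each tank 1 treatment, and no test over tanks was made.

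No relation of level with coverage passed the threshold among the used fish. Across the 21 fish Pearson's r was -0.13 (permutation p = 0.503, adjusted 0.757) and Spearman's rho -0.07 (permutation p = 0.757, adjusted 0.757, 2 relations). Without the 2 fish farthest from the median coverage, WH fish 75 and WN fish 116, r was 0.15 (permutation p = 0.505, n = 19). Among the 9 fish of at least 100 calls r was -0.41 and rho -0.40 (exact permutation, adjusted p = 0.291 each). The minimum had removed the shallowest fish, and over all calls the level was 1.71% in the 21 used fish (95% Wilson interval 1.65% to 1.78%) and 2.76% in the 27 others (2.23% to 3.40%). These intervals cover counting error only and not the spread between fish. Of the calls of the used fish 89.2% came from 5 fish, and WN fish 89 held 13 of the 84 methylated calls of the others. The difference between the 2 sets of fish was not tested.

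Compared with the other amplicons in the same 21 fish, ssa15 was among those of low level, and within these the highest. Its 1.93% ± 0.746 exceeded the 1.46% ± 0.404 of ssa14 by 0.471 points (SD of the difference 0.800, higher in 15 of 21 fish, permutation, adjusted p = 0.0119 over 6 amplicons). It exceeded the 0.650% ± 0.130 of ssa03 by 1.28 points (higher in 20 of 21 fish), the 0.539% ± 0.0552 of ssa16 by 1.39 points (higher in 21 of 21) and the 0.477% ± 0.154 of the ssa04 amplicon at 44947109 to 44947524 by 1.45 points (higher in 20 of 21). Its difference from the ssa04 amplicon at 35435825 to 35436217, which had 26.8% ± 4.26, was -24.8 points, and its difference from ssa09, which had 92.6% ± 1.01, was -90.6 points, lower in 21 of 21 fish in both cases. The adjusted p was 1.2e-05 in each of these 5, from a permutation p of 1e-05, the smallest that the resamples can give.

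The spread between fish was also widest, relative to the mean, in ssa15. Its SD was 38.7% of its mean, against 32.3% in the ssa04 amplicon at 44947109, 27.7% in ssa14, 20.0% in ssa03 and 10.2% in ssa16. Coverage was lowest in ssa15, at a median of 81 calls per CpG. In the same fish these 4 amplicons had 26636, 33831.5, 415 and 13347 calls, which did not follow the order of their spread. All 4 were deeper than ssa15, so their order cannot show what counting error adds at its lower coverage. In ssa15, WH fish 76, with a median of 81 calls, had 1.53% over all its calls (Wilson interval 0.945% to 2.47%). The SD of ssa15 thus holds counting error as well as differences between fish. The part of coverage in the spread was not tested. The highest CpG mean was 6.60% in ssa15, against 5.25% in ssa14 (33502562, its first CpG), 1.62% in ssa03, 1.17% in ssa16 and 0.750% in the ssa04 amplicon at 44947109. These differences in spread and in the highest CpG were not tested.

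**Figure D5:**
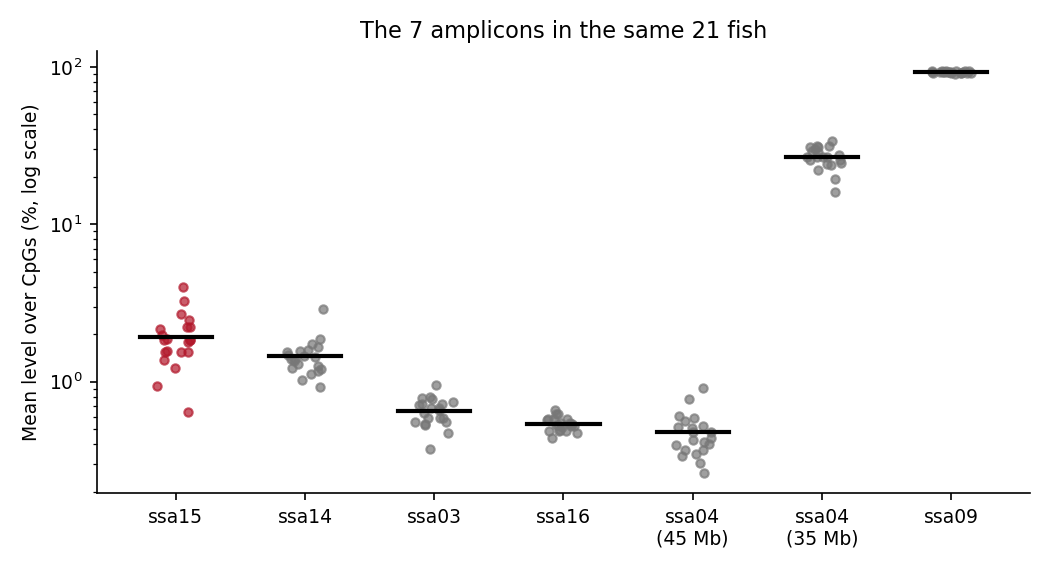
Mean level over CpGs (%, log scale) of the 7 amplicons in the same 21 fish, with 1 point per fish, a bar at the mean, ssa15 in red and the others in grey. The mean of ssa15 is 1.93%, that of ssa14 1.46%, and those of the other low amplicons lie between 0.477% and 0.650%.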

How the data were processed

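Bisulfite-converted liver DNA of 48 fish was amplified, given Nextera XT indexes and read on an Illumina MiSeq, per the labels' protocols. Bismark 0.20.0, Bowtie2, Trim Galore 0.4.4 and MultiQC 1.9 are named in the submitters' processing notes. Settings, genome build and handling of duplicates are not given in the sources used here. Each deposited file lists counts of methylated and unmethylated calls per CpG cytosine, without normalization, per the file headers. All calls in ssa15 lay on the plus strand.

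From these counts, levels were computed with Python 3.11.15, numpy 2.4.6, scipy 1.17.1 and pandas 2.3.3. A CpG of a fish needed 10 calls, which every CpG of the 21 fish had. A fish's level is the unweighted mean over CpGs. Amplicons are runs of CpGs with calls in all 48 fish, less than 1000 bases apart. Groups follow the sample titles. Tests were sign-flip permutations over fish and permutations of fish for correlations, with 100000 resamples (all sign changes for up to 12 fish). Only the sign-flip test of single CpGs was tried on simulated data. Levels as low as those of ssa15 were not simulated. Treatments were compared by description only.

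All 13 CpGs have values. Those given in full were to be the CpGs past the threshold, at most 4 in each direction, with the highest and the lowest CpG. The CpGs that did not pass were described after their values were seen. The amplicon, its minimum coverage and the tests were chosen with earlier results of these data known. P-values measure the spread between fish, 4 of which share a tank and time. Alternatives were other minimums for fish (10, 50, 100 calls) and CpGs (1, 30 calls), the shallower fish (CpGs of 1 or 10 calls), pooled calls, log10 coverage and leaving out each fish.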

Additional observations from a re-analysis of the deposited data

How the results depend on the processing

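The counts of higher and lower CpGs stayed within 1.5 times of 3 and 6, but for 1 higher CpG in the 10 shallower fish with at least 10 calls per CpG. Fish minimums of 10, 50 and 100 calls gave 2, 3 and 2 higher and 7, 7 and 5 lower CpGs, and leaving out single fish gave 2 to 3 higher and 6 to 7 lower. All 6 differences from the other amplicons kept their direction and passed, and without single fish the difference from ssa14 ranged from 0.368 to 0.541 points (highest adjusted p = 0.0231, permutation). The level over fish was 1.83% to 1.99% without single fish, and 2.76% in the pooled calls of the 27 shallower fish, chosen as an alternative once the data had been seen. In those fish, with CpGs of at least 1 call, the difference of CpG 46698404 was 1.39 points, opposite in sign to that of the 21 fish (adjusted p = 0.605, permutation). Fish with 3 or 4 calls, 1 of them methylated, enter there, and with at least 10 calls the difference was -2.14 points (10 fish, exact permutation, adjusted p = 0.0953). That of CpG 46698820 was -0.177 to 0.461 without single fish, negative without WH fish 100, and -0.0032 in the 10 shallower fish. Spearman's rho of level with coverage was 0.0125 with a fish minimum of 50 and 0.0747 with a CpG minimum of 30. With a fish minimum of 10, WH fish of 4 weeks had 1.73% and WN fish of 3 days 2.79%, the latter with WN fish 89 added. With a CpG minimum of 30, WH fish of 4 weeks had 1.60%, where WH fish 98 loses CpGs with 28 or 29 calls, and with calls pooled over fish WH fish of 3 days had 1.44%, where WH fish 75 holds most calls. The other 307 of 315 values that answer a comparison moved by less than the spread between fish or kept their call. Part of this count was fixed in advance. Leaving out a single fish cannot move a mean by its SD, so the control mean of 4 weeks counted as kept at 0.641% and at 3.98%. A CpG minimum of 1 call changed nothing, as every CpG of the 21 fish had 10 calls. Taking log10 of coverage leaves Spearman's rho as it is. The differences of single CpGs are not among the 315 values. Under the alternatives 332 of them kept sign and call, 16 no longer passed the threshold, 13 came to pass it and 3 changed sign. No pairing of fish between treatments or times was possible because the labels number each fish once and groups share no replicate number. At about 30 calls a single call is 3.33%, so depth limits what single CpGs of most fish can show.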

Other observations

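Chromosome 15 also carried 422 calls outside the amplicon, spread over 6 of the 48 fish. WN fish 101 of 4 weeks had 154 calls at 28 CpGs, 133 of them methylated, and WH fish 120 of 4 weeks had 32 at 8 CpGs, all 32 methylated. WH fish 73 and 74 of 3 days had 10 calls and 1 call. CT fish 84 of 3 days had 204 calls at 22 CpGs, 111 of them methylated, and CT fish 88 of 3 days had 21, 15 of them methylated.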
